A study of Mus musculus with 2 samples.

Results

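Tumour cells rich in RNA of the secreted proteins lipocalin-2 (Lcn2) and secretory leukocyte protease inhibitor (Slpi) were examined in 4T1 mammary tumours grown in mice, with and without Kindlin-2. The cells came from a single-cell RNA data set of 15288 cell barcodes. Tumour cells were taken as barcodes with at least 5000 UMIs (unique molecular identifiers, each counting 1 captured RNA molecule), at most 20% mitochondrial UMIs, no UMI of the leukocyte gene Ptprc, at least 5 counts per 10000 UMIs (CP10K) of Epcam, Krt8 and Krt18 together, under 20 CP10K of the mammary gland gene Wfdc18, and under 5 CP10K of the proliferation genes Top2a, Mki67 and Cenpf together. This left 4877 cells, and the 600 with the highest summed CP10K of Lcn2 and Slpi over both libraries formed the Lcn2/Slpi-high cells. The other 4277 filter-passing cells served for comparison and are called the other tumour cells. Lcn2 and Slpi levels chose the cells, so the levels of these 2 genes are given as a description, and every other gene was measured in the same cells that the ranking picked.

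The series addresses the role of Kindlin-2 in immune evasion by breast cancer. It holds 1 library of control tumours, from 4T1 cells given a Ctrl sgRNA and labelled WT, and 1 library of K2-KO tumours, from 4T1 cells given a K2 sgRNA. 4T1 is an established mouse triple-negative mammary carcinoma line from the BALB/c strain, and all tumours grew orthotopically, in fat pads of the mammary gland of female mice of that strain, and were taken at 150 mm3, a size that the groups share. Digestion took 45 min, and viable cells were separated by whether they carried mCherry, with unlabelled 4T1 cells as the negative control. The labels are silent on which fraction of that sort went into the libraries, how many tumours entered a library, whether the knockout line was 1 clone, or the age of the mice. With 1 library per group no difference between control and knockout has a replicate check, and cells of a library are not replicates. No p-value is therefore given, intervals cover counting error only, and clone, tumour and library cannot be told apart from genotype.

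Lipocalin-2 is a small secreted protein that binds bacterial siderophores, the iron carriers of microbes, and belongs to the acute-phase response that inflammatory cytokines induce through the transcription factors NF-kappaB, C/EBP-beta and C/EBP-delta. Slpi is a secreted inhibitor of neutrophil elastase and related serine proteases, made by mucosal and glandular epithelium and by neutrophils. H19 is an imprinted long non-coding RNA that is abundant in the embryo, mostly silent in adult tissues and re-expressed in many tumours.

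The promoters of the genes that define the cells are shown because genes of C/EBP and NF-kappaB factors and of their targets are among the results. Each sequence runs 5′ to 3′ over the 250 bases before the RefSeq transcription start (RefSeq table, GRCm38.p6), with matches in capitals to a kappaB-type motif (GGG, then 5 free bases, then CC) or a C/EBP-type motif (TTNNGNAA), searched on both strands. Lcn2 lies at chr2:32387740-32387989 and Slpi at chr2:164356508-164356757, both on the minus strand.
Lcn2: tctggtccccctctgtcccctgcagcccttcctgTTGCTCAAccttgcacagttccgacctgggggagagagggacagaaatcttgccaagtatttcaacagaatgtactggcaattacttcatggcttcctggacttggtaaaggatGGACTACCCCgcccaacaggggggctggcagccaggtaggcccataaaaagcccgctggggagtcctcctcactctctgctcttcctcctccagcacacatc
Slpi: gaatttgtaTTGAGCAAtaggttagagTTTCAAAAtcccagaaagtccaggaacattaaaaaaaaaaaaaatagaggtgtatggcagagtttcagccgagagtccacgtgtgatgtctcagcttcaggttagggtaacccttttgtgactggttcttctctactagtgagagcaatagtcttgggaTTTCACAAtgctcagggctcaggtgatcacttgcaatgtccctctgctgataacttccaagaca
The Lcn2 promoter held 1 kappaB-type match, GGACTACCCC on the strand opposite to the gene, at positions -102 to -93 from the start, and 1 C/EBP-type match, TTGCTCAA at -216 to -209. The Slpi promoter held 3 C/EBP-type matches, TTGAGCAA at -241 to -234, TTTCAAAA at -223 to -216 and TTTCACAA at -64 to -57, and no kappaB-type match in this window. The motifs are short and common, present in 45.8% and 36.8% of the 32851 promoters of the table, so a match is only a description of the letters. H19 was matched to no entry of this table. In the GENCODE M21 annotation of mm10, Lcn2 spans bases 32384633 to 32388252 and Slpi bases 164354070 to 164389095 of chromosome 2, both protein coding, and H19 spans bases 142575529 to 142578143 of chromosome 7, all on the minus strand.

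The control library held 400 Lcn2/Slpi-high cells, 12.8% of its 3120 filter-passing cells (exact Clopper-Pearson 95% interval 11.7 to 14%), and the knockout library held 200, 11.4% of 1757 (9.93 to 13%). Because both libraries were ranked together, these shares follow from the levels of Lcn2 and Slpi themselves. Their median depth was 30300 UMIs and 5444 genes per cell in the control and 35022 UMIs and 5826 genes in the knockout library, against 34535 and 37749 UMIs in the other tumour cells. Mitochondrial RNA took a median of 3.19% and 3.61% of UMIs, against 3.17% and 3.49% in the other tumour cells. Of 13 barcodes found in both libraries, 0 belonged to Lcn2/Slpi-high cells. A doublet caller marked 2.80% of 7747 control and 2.89% of 6962 knockout barcodes, and 0 of the Lcn2/Slpi-high cells.

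The cells carried the marker RNA of tumour epithelium, and the marker lists of other cell types had lower sums. The 5 tumour epithelial markers that the filter did not use (Krt7, Krt19, Cdh1, Cldn3 and Cldn4) summed to 1068 and 698 counts per 1000000 UMIs (CPM) in control and knockout Lcn2/Slpi-high cells, against 1099 and 877 in the other tumour cells and 31.3 and 32.8 in gated T cells. Neutrophils also make Lcn2 and Slpi. The 12 neutrophil markers summed to 9.56 and 3.58 CPM, with 2 and 3 of the 12 at 0, against 8.16 and 8.04 CPM in the other tumour cells. Gated neutrophils had 85990 and 82356 CPM, but their gate used S100a8 and S100a9, which are among the 12 markers. The filter also required the absence of Ptprc, so low leukocyte RNA was partly set in advance. The 9 mammary gland markers other than Wfdc18, which the filter used, summed to 28.9 and 49.3 CPM, with 1 and 2 of 9 at 0, against 31.7 and 80.8 CPM in the other tumour cells and 2835 and 4122 CPM in the Wfdc18-high epithelial cells that the filter removed. Macrophage markers stood at 57.9 and 81.6 CPM (58.2 and 55.4 in the other tumour cells), T and NK cell markers at 2.84 and 3.45 (3.32 and 5.09), fibroblast markers at 33.8 and 39.5 (56.0 and 63.3) and endothelial markers at 6.12 and 4.09 (10.6 and 7.70). Macrophages, fibroblasts and endothelial cells were not gated, so their marker sums have no reference level here. A few cells did carry several UMIs of 6 gland genes (Csn3, Csn2, Ltf, Aldh1a3, Kit and Elf5): 6 of 400 control and 16 of 200 knockout Lcn2/Slpi-high cells held at least 3 such UMIs, 1.5% and 8%, against 0.662% and 4.3% of the other tumour cells.

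Kindlin-2 is encoded by Fermt2 (chromosome 14, bases 45458795 to 45530118), an adaptor that activates integrins at focal adhesions. Its pooled level was 37.4 CPM in control and 12.3 CPM in knockout Lcn2/Slpi-high cells, a log2 ratio of -1.61 (95% interval -1.94 to -1.29), and 42.4 and 17.3 CPM in the other tumour cells. The position of the guide is not given in the sources used here, and 3′ tags of an edited transcript can persist, so a lower count is no measure of lost protein.

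The cells varied widely in both genes. Per cell, Lcn2 had a median of 30.8 CP10K in the control Lcn2/Slpi-high cells, with quartiles of 9.51 and 57.0 and a highest value of 354, and Slpi a median of 26.4 CP10K, with quartiles of 3.64 and 46.4 and a highest value of 142. In the knockout library Lcn2 was lower, with a median of 9.81 CP10K (quartiles 3.92 and 21.7, highest 88.6), and Slpi higher, with a median of 57.4 CP10K (quartiles 42.1 and 90.3, highest 250.2). The ranges of the 2 libraries overlap for both genes, and the cell with the highest score of all, a control cell at 354 CP10K, had no Slpi UMI. In the other tumour cells the medians were 3.07 CP10K for Lcn2 and 3.67 for Slpi in the control library, and 0.214 and 0.189 in the knockout library.

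The border of the group was not a gap. The 5 cells just inside it scored 42.1, 42.1, 41.9, 41.9 and 41.9 CP10K, and the 5 just outside 41.7, 41.6, 41.6, 41.6 and 41.5 CP10K. Of the 600 cells, 295 also ranked among the top 600 by Lcn2 alone and 387 by Slpi alone, 83 did so by both and 1 by neither. Cells with more Lcn2 than Slpi UMIs are called Lcn2-led here, and the rest Slpi-led, a split by raw 3′ counts that does not correct for how well each gene is captured.

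The balance between the genes was not the same in the libraries. Of the control cells 206 of 400 (51.5%) were Lcn2-led and 194 (48.5%) Slpi-led, whereas of the knockout cells 22 of 200 (11%) were Lcn2-led and 178 (89%) Slpi-led. At least 10 CP10K of each gene was found in 160 of 400 control cells (40%) and in 87 of 200 knockout cells (43.5%). Over all filter-passing cells the rank correlation of Lcn2 with Slpi was 0.03 in the control (3120 cells) and 0.39 in the knockout library (1757 cells). These values describe cells that share a library but differ widely in depth. Ranked by Lcn2 alone, the top 600 cells would have been 485 control and 115 knockout cells, and ranked by Slpi alone 342 and 258.

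**Figure D1:**
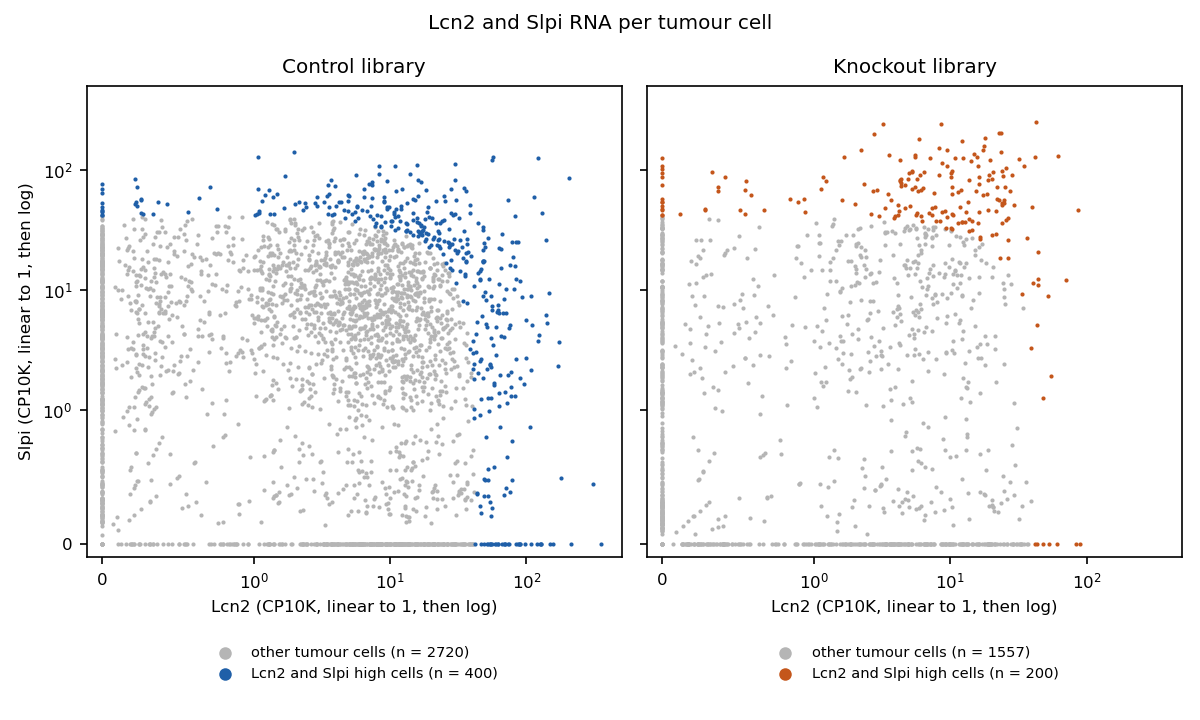
Lcn2 against Slpi in each filter-passing tumour cell, in counts per 10000 UMIs, with the control library in the left panel and the knockout library in the right panel. Coloured points are the Lcn2/Slpi-high cells: 400 control cells, of which 194 had as many or more Slpi than Lcn2 UMIs, and 200 knockout cells, of which 178 did. At least 10 CP10K of each gene was found in 40% of the control and 43.5% of the knockout cells.

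In pooled counts, Lcn2 stood at 3739 CPM in control and 1526 CPM in knockout Lcn2/Slpi-high cells, against 605 and 286 CPM in the other tumour cells. Slpi stood at 2951 and 6735 CPM, against 725 and 415 CPM. Slpi was thus higher in the knockout than in the control library among the cells picked for it, and lower among the rest. For scale, gated neutrophils had 423 and 1421 CPM of Lcn2 and 342 and 246 CPM of Slpi. The Wfdc18-high epithelial cells, only 5 control and 32 knockout cells, had 2555 and 1819 CPM of Lcn2 and 142 and 281 CPM of Slpi. In the knockout library their Lcn2 level was thus above that of the Lcn2/Slpi-high cells. Gated T cells, which should lack both RNAs, had 20.5 and 4.78 CPM of Lcn2 and 25.9 and 14.3 CPM of Slpi. A Lcn2 UMI was present in 97.5% and 93% of the Lcn2/Slpi-high cells and in 8.91% and 3.30% of T cells, and a Slpi UMI in 91.5% and 96.5% against 9.47% and 7.51%, where T cells had median depths of 6587 and 7335 UMIs.

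H19, named with Lcn2 and Slpi as a marker of these cells, was higher in pooled counts but carried by few of them. Its pooled level was 189.7 CPM against 89.6 CPM in the other tumour cells of the control library, a log2 ratio of 1.08 (1.02 to 1.15), and 76.0 against 16.4 CPM in the knockout library, a log2 ratio of 2.21 (2.07 to 2.36). Yet an H19 UMI was found in 115 of 400 control Lcn2/Slpi-high cells (28.8%), close to the 28.3% of the other tumour cells, and in 30 of 200 knockout cells (15%), against 9.25%. After thinning every cell to 5000 UMIs, the shares became 17% against 14% in the control and 9.5% against 3.53% in the knockout library, and T cells stood at 2.03% and 0.20%, with 113 and 165 T cells too shallow to be thinned. The median cell therefore had no H19, and 50% of the H19 UMIs sat in 11 control and 4 knockout Lcn2/Slpi-high cells. The top cell alone held 9.06% and 17.6% of them. Rank correlations of H19 with Lcn2 were 0.06 and 0.09, and with Slpi 0.10 and 0.11, across all filter-passing cells.

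To describe the rest of the transcriptome, UMIs were summed over the Lcn2/Slpi-high cells and over the other tumour cells of each library, and genes averaging at least 5 CPM over the 2 sums were compared. A gene is called higher or lower here when the sums differ at least 1.5-fold. In the control library 89 of 9473 genes were higher (0.94%) and 251 lower (2.65%), and in the knockout library 200 of 9609 were higher (2.08%) and 690 lower (7.18%). The median log2 ratio over all compared genes was -0.08 in each library, and scaling by the median ratio instead of the UMI total gave 121 higher and 191 lower genes in the control library. Of 9265 genes compared in both libraries, 33 were higher in both (0.356%) and 169 lower in both (1.82%). Only 6 were higher in the control and lower in the knockout library (0.0648%), and 2 the reverse (0.0216%).

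Of the 15 named genes higher in both libraries, Cebpb, the transcription factor C/EBP-beta, stood at 729 against 435 CPM in the control and 214 against 112 CPM in the knockout library (log2 ratios 0.74 and 0.93, intervals 0.71 to 0.78 and 0.85 to 1.01). Cp, the copper-carrying ferroxidase ceruloplasmin, stood at 664 against 427 and 693 against 354 CPM. The complement genes C4b, at 42.7 against 20.2 and 60.0 against 21.2 CPM, and C1ra, at 8.14 against 3.78 and 9.07 against 4.44 CPM, had log2 ratios from 1.03 to 1.5. Tlr2, a receptor for bacterial lipoproteins, stood at 17.0 against 9.29 CPM and 14.6 against 7.50 CPM, and its log2 ratio was -0.10 in the control library when cells were ranked by Slpi alone.

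Csf3 encodes G-CSF, the cytokine that drives neutrophil production and that 4T1 tumours are known to release. It stood at 309 against 122 CPM in the control library, a log2 ratio of 1.33 (1.28 to 1.39), and at 82.9 against 49.4 CPM in the knockout library, a log2 ratio of 0.75 (0.62 to 0.87). Tslp, an epithelial cytokine that acts on dendritic cells, stood at 342 against 216 and 348 against 208 CPM. Spp1, the matrix glycoprotein osteopontin, was among the most abundant RNAs of the cells, at 6853 against 4193 and 7642 against 4029.7 CPM. Ccn5, a secreted matricellular protein of the CCN family, ranked first among the named genes, at 58.0 against 21.4 CPM (1.44, interval 1.32 to 1.56) and 9.58 against 3.29 CPM (1.54, interval 1.14 to 1.93).

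The gene 1110008P14Rik, next to Lcn2 on the chromosome, was higher in both libraries. It lies at bases 32377097 to 32381938 of chromosome 2, 2695 bases beyond the 3′ end of Lcn2 and on the same minus strand, and stood at 391 against 177 CPM in the control (log2 1.14, interval 1.10 to 1.19) and 308 against 124 CPM in the knockout library (1.31, interval 1.25 to 1.38). It overlaps Ciz1, whose log2 ratios were -0.01 and 0.23, and the next gene on the other side, Ptges2, a prostaglandin E synthase 7644 bases away, had ratios of 0.42 and 0.21. The strand setting of the counting is not given in the sources used here, so reads of overlapping genes cannot be told apart. The detoxifying genes Mgst1, a membrane glutathione transferase (40.9 against 22.2 and 65.6 against 37.7 CPM), and Abcc3, an export pump for conjugates (111 against 52.0 and 101 against 59.7 CPM), and the interferon-induced GTPase gene Gbp5 (14.9 against 6.68 and 40.1 against 21.4 CPM) completed the named set with 1200007C13Rik (41.7 against 25.3 and 27.7 against 15.4 CPM).

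**Figure D2:**
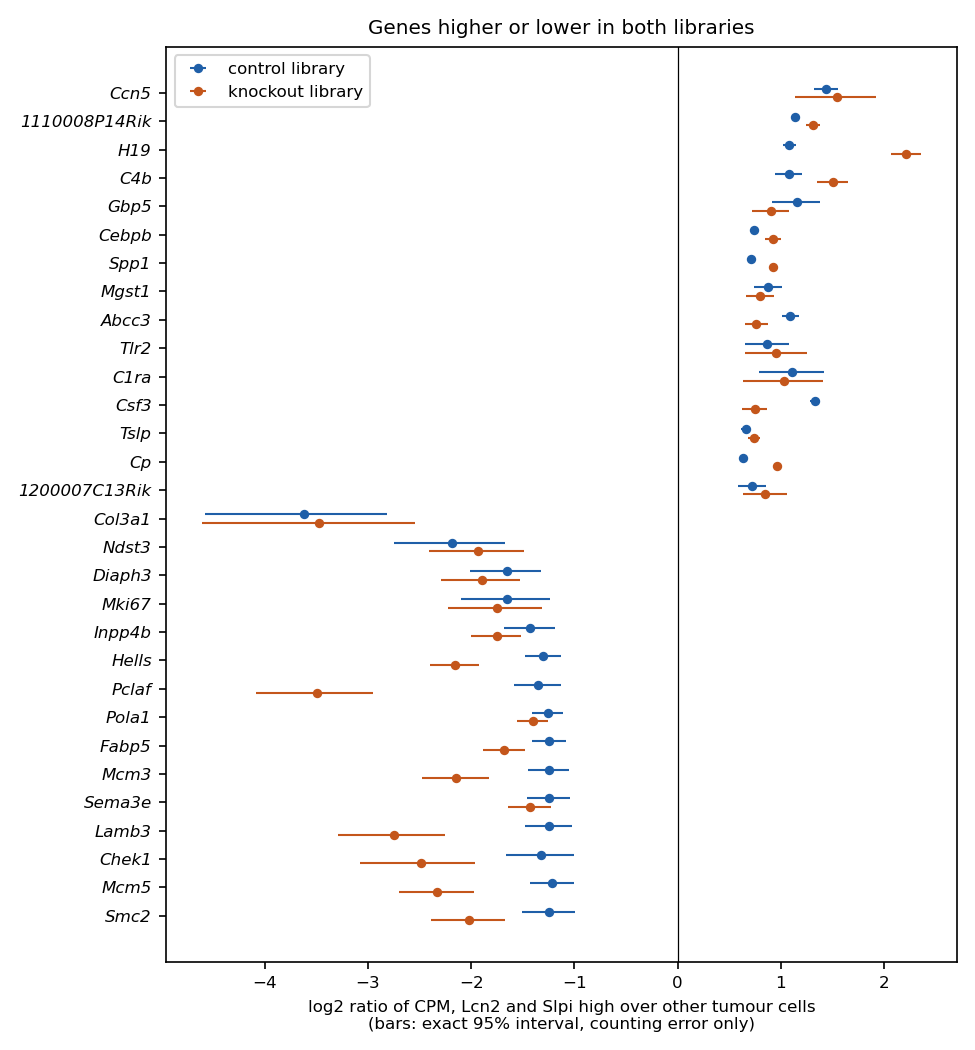
Log2 ratio of pooled CPM in Lcn2/Slpi-high cells over the other tumour cells for 30 genes chosen by 1 rule in both libraries, with 95% counting intervals. The 15 higher genes run up to 2.21 for H19 in the knockout library and the 15 lower ones down to -3.62 for Col3a1 in the control library.

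Of the 15 named lower genes, 9 act in DNA replication, its checkpoint or mitosis, a count that includes Mki67, which the filter used. In the list of 28 cell cycle genes, 12 of 19 compared genes were lower and 0 higher in the control library (median log2 ratio -0.96, all genes -0.08), and 18 of 20 were lower and 0 higher in the knockout library (median -1.77). Of the 19 compared in both libraries, 12 were lower in both, against 1.82% of all genes compared in both. The filter had already removed cells with 5 CP10K or more of Top2a, Mki67 and Cenpf from both sides, so the difference lies among cells below that limit. Mcm5, a subunit of the replicative helicase, stood at 14 against 32.4 CPM in the control and 8.43 against 42.3 CPM in the knockout library, and Mcm3 of the same complex at 16.5 against 39.1 and 10.6 against 46.8 CPM. Pclaf, a factor bound to the sliding clamp PCNA, stood at 12.3 against 31.5 and 3.58 against 40.2 CPM (log2 -1.35 and -3.49), with a control ratio of 0.045 when cells were ranked by Slpi alone. Hells, a chromatin remodeller needed for DNA methylation, had log2 ratios of -1.30 and -2.16. Pola1, the catalytic subunit of DNA polymerase alpha, had -1.26 and -1.41, and the checkpoint kinase gene Chek1 -1.33 and -2.49. Smc2 of condensin (-1.24 and -2.02), the formin gene Diaph3 (-1.66 and -1.90) and Mki67 itself (-1.65 and -1.75) lay in the same range. Birc5, the mitotic regulator survivin, had -0.96 and -2.74.

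Other genes lower in both libraries had roles outside the cycle. Fabp5, a carrier of fatty acids, stood at 24.5 against 58.1 and 26.7 against 85.6 CPM. Lamb3, which encodes a chain of the laminin of epithelial basement membranes, stood at 12.4 against 29.5 and 4.21 against 28.4 CPM. Lama3, which encodes another laminin chain, had log2 ratios of -1.13 and -2.67. Sema3e, a secreted guidance cue, had log2 ratios of -1.25 and -1.43. Inpp4b, a lipid phosphatase, had -1.43 and -1.75, and the heparan sulphate enzyme gene Ndst3 -2.18 and -1.93. Col3a1, a collagen of fibroblasts, had ratios of -3.62 and -3.47, but 1 of the other tumour cells held 26.1% of their Col3a1 UMIs in the control and 50.2% in the knockout library, and ranking by Lcn2 alone turned the control ratio to 0.80.

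The same genes were followed along the ranking. Filter-passing cells of each library were divided into 10 equal bins by their summed Lcn2 and Slpi, from a median score of 0.190 to 65.3 CP10K in the control (312 cells per bin) and from 0 to 78.8 CP10K in the knockout library (175 or 176 cells). Cebpb stood at 227 CPM in the lowest and 759 in the highest bin of the control library, and at 59.2 and 217 CPM in the knockout library. Spp1 went from 1327 to 7001 CPM and from 1574 to 7496 CPM, and Csf3 from 93.0 to 337 CPM and from 34.2 to 85.7 CPM. The neighbour of Lcn2, 1110008P14Rik, had 53.3 and 417 CPM at the ends of the control ranking and 45.8 and 311 CPM in the knockout library. In the opposite direction, Mcm5 went from 66.0 to 11.7 CPM and from 62.8 to 8.32 CPM. The ends of the ranking thus lay farther apart than the Lcn2/Slpi-high cells and the rest, for these 5 genes in both libraries. Mt2, a metallothionein, which binds zinc and other metals, took different paths: 379.8 and 764 CPM at the ends of the control ranking but 142 and 30.4 CPM in the knockout library.

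**Figure D3:**
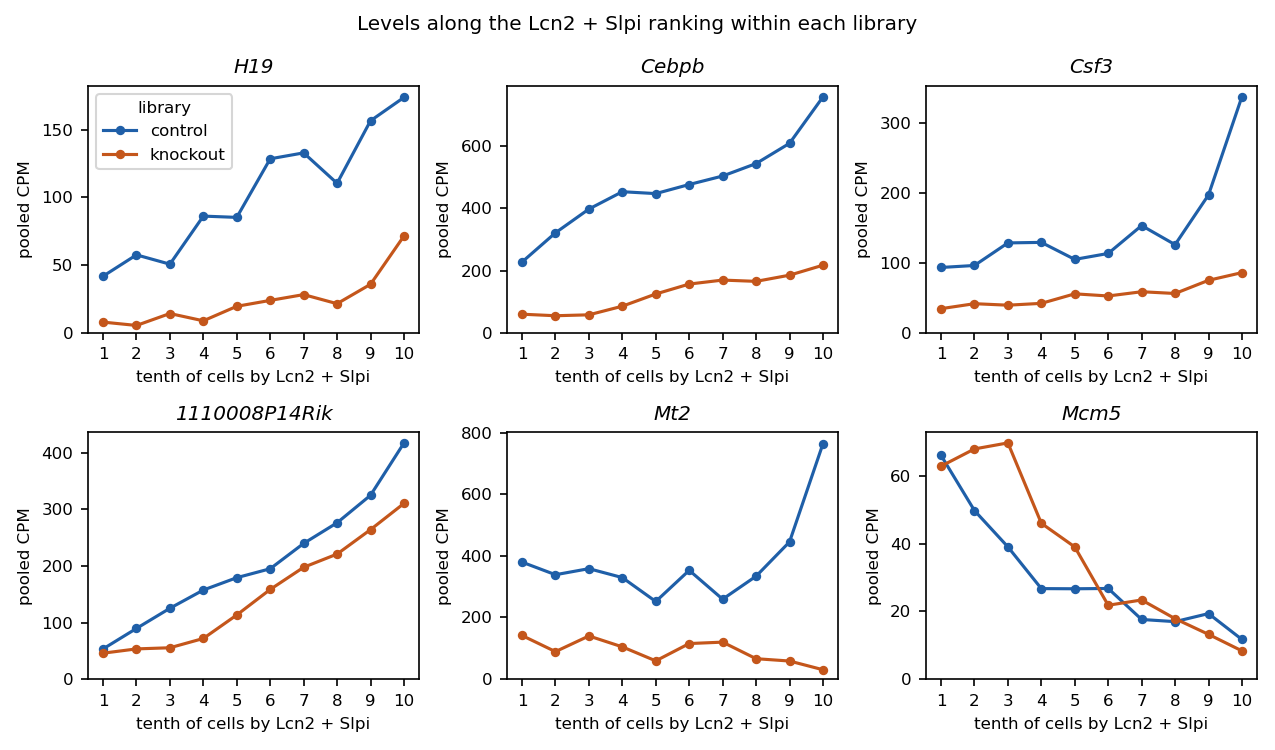
Pooled CPM of H19, Cebpb, Csf3, 1110008P14Rik, Mt2 and Mcm5 in 10 equal bins of filter-passing tumour cells ranked by the sum of Lcn2 and Slpi, 1 line per library. Cebpb reaches 759 CPM in the top control bin and Mcm5 11.7 CPM, and Mt2 ends at 764 CPM in the control but 30.4 CPM in the knockout library.

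In the list of 32 NF-kappaB target and acute-phase genes, 8 of 23 compared genes were higher and 1 lower in the control library (median log2 ratio 0.34), and 6 of 26 were higher and 1 lower in the knockout library (median 0.14). Of the 23 compared in both libraries, 3 were higher in both, against 0.356% of all genes compared in both. Over all compared genes, 0.94% were higher and 2.65% lower in the control library, and 2.08% and 7.18% in the knockout library. Of the 6 higher in the knockout library, Saa1, Saa3 and Cxcl5 had 98.0%, 98.5% and 51.6% of their UMIs in 1 cell. C3, the central complement component, stood at 191 against 88.9 CPM in the control library and 81.6 against 58.7 CPM in the knockout library. Sod2, the mitochondrial superoxide dismutase that NF-kappaB induces, stood at 157 against 80.9 CPM and 70.7 against 62.4 CPM. Cebpd, the gene of C/EBP-delta, was higher only in the control library, at 68.3 against 16.4 CPM, with 8.04 against 11.6 CPM in the knockout library (log2 2.06 and -0.53). Nfkbia, the inhibitor that NF-kappaB itself induces, had 0.53 and 0.34, and Icam1, an adhesion molecule of the same list, -0.81 and -0.58.

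Chemokines and growth factors were mixed. Of 41 listed genes, 8 of 31 were higher and 1 lower in the control library (median 0.20), 7 of 28 higher and 9 lower in the knockout library (median 0.01), and 4 of 28 higher in both. Among all genes compared, 0.94% were higher and 2.65% lower in the control library, and 2.08% and 7.18% in the knockout library. The share higher in both was 0.356%. Cxcl1, a neutrophil attractant, stood at 904 against 459.7 CPM in the control and 252 against 187 CPM in the knockout library. Cxcl5, which acts on the same receptor, stood at 57.9 against 10.2 CPM in the control library. In the knockout library it stood at 11.9 against 4.10 CPM, where 51.6% of the UMIs came from 1 cell. Ccl2, a monocyte attractant, was higher in control Lcn2/Slpi-high cells, at 194 against 66.1 CPM, and in the knockout library stood at 2.17 against 6.63 CPM, under the mean of 5 CPM needed for the comparison.

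Of the iron genes, chosen because lipocalin-2 carries iron siderophores, 3 of 11 were higher and 0 lower in the control library (median 0.23) and 1 of 9 higher and 0 lower in the knockout library (median 0.09). For all genes compared these shares were 0.94% and 2.65% in the control and 2.08% and 7.18% in the knockout library. The heavy chain of ferritin, Fth1, which stores iron, stood at 12085 against 6801 CPM and 11665 against 8005 CPM, with log2 ratios of 0.83 and 0.54 against 0.26 and 0.07 for the light chain Ftl1. Hmox1, the haem-degrading enzyme, had 1.36 in the control library, where 1 cell held 30.1% of its UMIs, and was under the mean of 5 CPM in the knockout library. Among 31 protease inhibitors and antimicrobial genes other than Slpi, 2 of 13 were higher in the control and 2 of 12 in the knockout library, with 0 and 2 lower. Wfdc2, a relative of Slpi with the same WAP domain fold, stood at 2697 against 1799 CPM and 1236 against 1123 CPM. Serpine2, an inhibitor of thrombin and urokinase, was the gene of that list higher in both, at 77.2 against 49.8 and 66.1 against 15.7 CPM. Serpinb5, the mammary serpin maspin, was lower at -0.37 and -1.96, past 1.5-fold in the knockout library only.

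Extracellular matrix genes leaned lower: 6 of 26 in the control library and 12 of 25 in the knockout library, with 1 and 3 higher, medians of -0.11 and -0.50, and 6 of 24 lower in both. Of all genes compared, 2.65% were lower in the control library, 7.18% in the knockout library and 1.82% in both. The shares higher were 0.94% and 2.08%. Tnc, the matrix protein tenascin-C, had -0.75 and -2.01. Mgp, which holds back calcification, stood at 407 against 282 CPM in the control and 362 against 117 CPM in the knockout library, and fibronectin (Fn1) had 0.35 and 0.61. Fibroblast markers were also lower in the Lcn2/Slpi-high cells (values above), and their part in the matrix counts was not tested. The basal and squamous list had 3 of 5 lower in the knockout library (median -1.59), with the basal keratin gene Krt14 at 12.3 against 90.6 CPM, and 1 of 6 higher (Krt17, with 41.7% of its UMIs in 1 cell) and 0 lower in the control library, where Krt14 stood at 27.9 against 38.5 CPM. S100 genes, small calcium-binding proteins, had 0 of 9 past 1.5-fold in the control and 3 of 9 lower in the knockout library. S100a4, a calcium-binding protein linked with metastasis, stood at 1033 against 1287 and 1257 against 2104 CPM.

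Gene groups tied to immune recognition lay near the level of the other tumour cells. Of the interferon response genes, 1 of 37 was higher and 2 lower in the control library, and 1 of 38 higher and 2 lower in the knockout library, with medians of -0.08 and 0.04. Of all genes compared, 0.94% were higher and 2.65% lower in the control library, and 2.08% and 7.18% in the knockout library. The list of MHC class I presentation had 0 of 22 past 1.5-fold in either library, with medians of 0.07 and 0.14. B2m, the light chain of MHC class I, stood at 2734 against 2327 CPM and 2205 against 1799 CPM. Cd274, the gene of the checkpoint ligand PD-L1, stood at 12.9 against 17.7 CPM and 53.1 against 56.3 CPM. Hypoxia and glycolysis genes had 0 of 28 past 1.5-fold in the control and 1 higher and 1 lower of 28 in the knockout library, with medians of 0.20 and -0.29. Lysosome and autophagy genes (medians 0.24 and 0.21), integrin adhesion genes (-0.18 and -0.22), TGF-beta targets and unfolded protein response genes had at most 4 genes past 1.5-fold in a library. Of the genes that stop the cell cycle or respond to p53, 1 of 19 was higher and 0 lower in the control library, and 2 of 19 were higher and 2 lower in the knockout library (median -0.13). Fas, a death receptor, was higher in both (0.62 and 0.93), and Gadd45a, a stress sensor, stood at 273 against 121 CPM in the knockout library. The lower ones were Cdkn1a, the cycle inhibitor p21, at 6.51 against 11.8 CPM, and Sfn, an epithelial member of the 14-3-3 family, at 33.5 against 101 CPM.

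**Figure D4:**
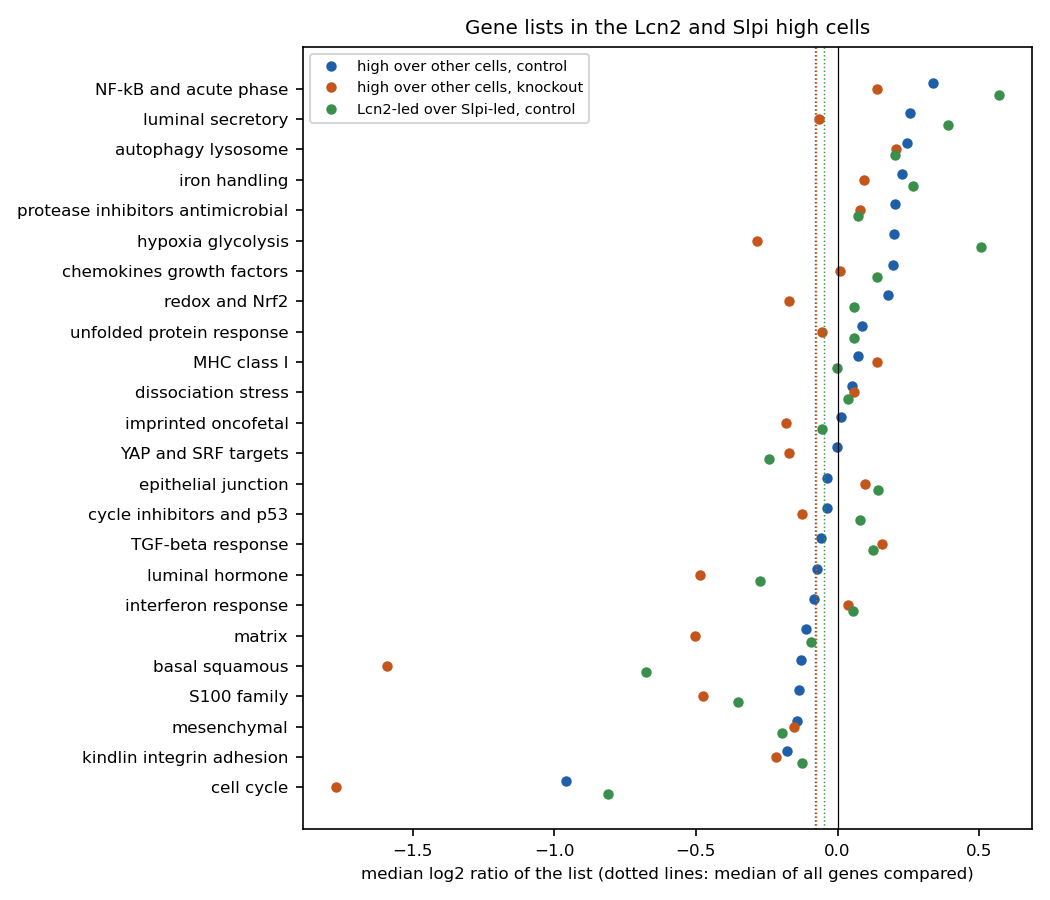
Median log2 ratio of 24 gene lists for Lcn2/Slpi-high cells over other tumour cells in the control and the knockout library, and for Lcn2-led over Slpi-led cells of the control library, with dotted lines at the median of all compared genes. Cell cycle genes lie at -0.96, -1.77 and -0.81, and hypoxia genes at 0.20, -0.29 and 0.51.

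The control cells were numerous enough in both subsets to set the 206 Lcn2-led against the 194 Slpi-led cells. Of 9399 compared genes, 298 were higher in the Lcn2-led cells (3.17%) and 371 lower (3.95%), more than the 89 and 251 between all control Lcn2/Slpi-high cells and the rest, though over fewer cells. Of the NF-kappaB and acute-phase list, 11 of 24 were higher and 0 lower (median 0.57, all genes -0.05). C3 stood at 314 CPM in Lcn2-led and 62.2 CPM in Slpi-led cells (log2 2.34, interval 2.18 to 2.49), and Sod2 at 209 and 101 CPM. Cebpb differed less, at 873 and 578 CPM. Pooled H19 was close in the subsets, at 184 and 196 CPM (log2 -0.09, counting interval -0.20 to 0.03). Few cells held much of the H19 RNA (values above), so this ratio depends on the subset in which those cells fell. Fermt2 was also close, at 35.8 and 39.1 CPM.

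Hypoxia and glycolysis genes were also higher in the Lcn2-led cells, 7 of 28 with 0 lower (median 0.51), against 3.17% of all genes compared. Ndrg1, a hypoxia-induced growth regulator, stood at 606 and 283 CPM, and Bnip3, which acts in the removal of mitochondria, at 132 and 53.8 CPM. Ero1l, an oxidase of the endoplasmic reticulum, stood at 226 and 72.2 CPM, and the glucose transporter gene Slc2a1 had a log2 ratio of 1.13. Luminal secretory genes had 7 of 14 higher and 1 lower (median 0.39), among them Cd14, a co-receptor for endotoxin, with 1.56. The metallothionein genes Mt1 and Mt2 had 1.35 and 1.29.

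Cell cycle genes were lower in the Lcn2-led than in the Slpi-led cells, 15 of 19 with 0 higher (median -0.81), against 3.95% of all genes compared. Mcm5 stood at 5.97 and 22.4 CPM, and Birc5 at 5.24 and 24.8 CPM. S100a4 stood at 597 CPM in Lcn2-led and 1491 CPM in Slpi-led cells.

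The list patterns of the control library accordingly depended on which gene ranked the cells. With the top 600 cells taken by Slpi alone, the control medians were -0.09 for NF-kappaB and acute-phase genes, -0.02 for cell cycle genes and -0.13 for hypoxia genes. With the top 600 by Lcn2 alone they were 0.47, -1.35 and 0.34. In the knockout library the cell cycle median stayed low under both, at -1.31 by Slpi and -2.12 by Lcn2, while the NF-kappaB median was -0.02 by Slpi and 0.56 by Lcn2. Restricting to Slpi-led cells, a choice made after seeing the data, gave cell cycle medians of -0.37 in the control and -1.71 in the knockout library. Some single genes stayed above 0 under both: Spp1 had log2 ratios of 0.67 and 0.87 by Slpi alone and 0.54 and 1.11 by Lcn2 alone, and Csf3 0.63 and 0.78 against 1.23 and 0.65. Cebpb kept a ratio of 0.74 in the knockout library by Slpi alone but only 0.16 in the control library.

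Knockout and control were then set against each other within the Lcn2/Slpi-high cells, with the same ratio in the other tumour cells beside it. Of 9462 genes, 844 were at least 1.5-fold higher in the knockout cells (8.92%) and 620 lower (6.55%). In the other tumour cells 557 of 9662 were higher (5.76%) and 369 lower (3.82%). The median over all genes was 0.04 and 0.06. Because the knockout cells were mostly Slpi-led, the comparison was repeated among Slpi-led cells only, 178 knockout against 194 control, where 858 of 9468 genes were higher (9.06%) and 701 lower (7.4%). Between the libraries, fewer cells of a state and less RNA per cell cannot be told apart in these pooled sums.

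Of the 10 named genes lower in the knockout cells, 2 encode metallothioneins and 2 inflammatory cytokines. Mt2 stood at 685 CPM in control and 36.0 CPM in knockout Lcn2/Slpi-high cells (log2 -4.25, interval -4.43 to -4.08), with a ratio of -3.53 among Slpi-led cells and -1.71 in the other tumour cells. Mt1, its neighbour and close relative, stood at 1797 and 166 CPM (log2 -3.44, other tumour cells -1.67). Il1a, an alarm cytokine, stood at 59.0 and 3.19 CPM (log2 -4.21, other tumour cells -2.59), the latter level from 25 UMIs, 24% of them in 1 cell. Cxcl2, another neutrophil attractant, stood at 48.0 and 3.58 CPM (-3.75 and -2.07). Ccl2 had -6.48 and -3.32, and Cxcl1 -1.84 and -1.30.

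The matrix list had 9 of 23 lower and 0 higher in the knockout cells (median -0.43), against 8 of 27 lower and 3 higher in the other tumour cells (-0.41), and the integrin adhesion list had 3 of 22 lower and 2 higher (median -0.08). Of all genes compared, 6.55% were lower and 8.92% higher in the knockout Lcn2/Slpi-high cells, and 3.82% and 5.76% in the other tumour cells. Among the other named lower genes, Ccn2, a classical YAP target and matricellular protein, stood at 31.9 and 2.17 CPM, with log2 ratios of -3.88 in Lcn2/Slpi-high and -1.87 in the other tumour cells. Mmp9, a gelatinase, stood at 57.4 and 5.62 CPM (-3.35 and -1.27). The membrane protease gene Adam12 stood at 13.7 and 1.02 CPM, a ratio of -3.74 that in the other tumour cells was 0.34. Its knockout sum in the Lcn2/Slpi-high cells was 8 UMIs, 25% of them in 1 cell. Anxa8, an annexin, stood at 45.3 and 4.98 CPM (-3.19 and -1.26), and Il18rap, a subunit of the interleukin-18 receptor, at 21.4 and 1.53 CPM (-3.81 and -1.21). The unnamed locus Gm15261 had -4.00 and -2.03. Knockout Lcn2/Slpi-high cells held few UMIs of some of these genes: 17 of Ccn2, 12 of Il18rap and 7 of Gm15261.

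Genes higher in the knockout cells were a mixed set in which low levels were common. Ppp1r9a, the actin-binding scaffold neurabin-1, was the most abundant of those named, at 33.3 CPM in control and 169.6 CPM in knockout cells (log2 2.35, interval 2.19 to 2.51, other tumour cells 2.08). Cysltr2, a receptor for cysteinyl leukotrienes, stood at 0.448 and 9.96 CPM (log2 4.47, other tumour cells 2.09). The oxysterol hydroxylase gene Cyp7b1 stood at 0.822 and 14.4 CPM (log2 4.13, other tumour cells 3.71), and the secreted metalloprotease gene Adamts9 at 3.21 and 26.4 CPM (log2 3.04, other tumour cells 2.13). Gstt1, a glutathione transferase, stood at 1.05 and 10.3 CPM (log2 3.31, other tumour cells 3.65). Rgs2, a brake on G protein signalling, stood at 10.2 and 57.1 CPM (2.48 and 2.63). The kinase genes Camk4 (2.82 and 2.30) and Map2k6 (3.03 and 3.23), the homeobox gene Zfhx4 (2.89 and 2.50) and Olfr56 (2.69 and 1.57) were higher in both kinds of tumour cells.

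**Figure D5:**
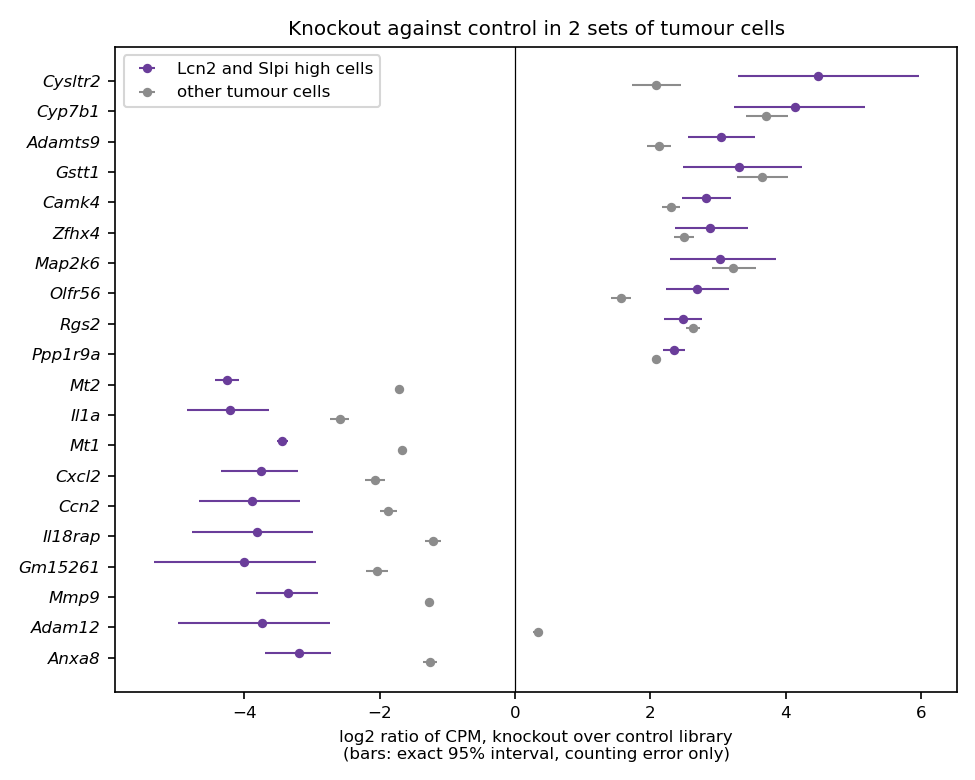
Log2 ratio of knockout over control pooled CPM for 20 named genes, in Lcn2/Slpi-high cells and in the other tumour cells, with 95% counting intervals. Mt2 lies at -4.25 in the former and -1.71 in the latter, and Adam12 at -3.74 and 0.34, the first of these resting on 8 knockout UMIs.

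By list, the NF-kappaB and acute-phase genes were lower in knockout than in control Lcn2/Slpi-high cells in 14 of 27 cases and higher in 4 (median -0.69), and in the other tumour cells 10 of 25 were lower and 3 higher (-0.46). Among all genes compared, 6.55% were lower and 8.92% higher in the Lcn2/Slpi-high cells, and 3.82% and 5.76% in the other tumour cells. Cebpb itself had -1.77, -1.95 in the other tumour cells and -1.52 among Slpi-led cells, so that the knockout Lcn2/Slpi-high cells, at 214 CPM, lay below the other tumour cells of the control library, at 435 CPM. Chemokines and growth factors had 15 of 30 lower and 3 higher (median -0.55, other tumour cells -0.19). Hypoxia genes had 13 of 28 lower and 0 higher (median -0.50), but 4 of 28 lower among Slpi-led cells (median -0.22), where the split between the subsets is held apart.

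Interferon response genes lay in the other direction: 25 of 38 were higher and 0 lower in the knockout Lcn2/Slpi-high cells (median 0.90), with 24 of 39 higher and 0 lower in the other tumour cells (median 0.73) and 20 of 37 higher among Slpi-led cells (median 0.70). Of all genes compared, the shares higher were 8.92%, 5.76% and 9.06%. The guanylate-binding protein genes Gbp2 and Gbp3 had log2 ratios of 1.36 and 1.91. Cd274 had 2.04, and 1.67 in the other tumour cells. MHC class I genes had 5 of 22 higher and 0 lower (median 0.26), with the same median and 3 of 22 higher in the other tumour cells, while B2m itself had -0.31. T and NK cell markers in these cells stood at 2.84 CPM in the control and 3.45 CPM in the knockout library.

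Cell cycle genes ran apart in the 2 kinds of tumour cells. In the Lcn2/Slpi-high cells 10 of 18 were lower and 0 higher in the knockout library (median -0.65), and in the other tumour cells 0 of 21 were lower and 3 higher (median 0.30). Among Slpi-led cells 11 of 19 were lower (median -0.91). For all genes compared, the shares lower were 6.55% in Lcn2/Slpi-high, 3.82% in other tumour and 7.4% in Slpi-led cells. H19 had -1.32 in the Lcn2/Slpi-high cells, -2.45 in the other tumour cells and -1.43 among Slpi-led cells. Whether the ratios differ between the kinds of cells was not tested, since each rests on 1 library per group.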

How the data were processed

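Single-cell 3′ RNA libraries of 1 control and 1 knockout tumour group were read from the matrix that the authors deposited, which holds raw UMI counts per gene and cell barcode. Per the submitters' processing notes it was made with Cell Ranger 2.1.1 on mm10, whereas the file headers name Cell Ranger 6.0.1. Further steps of the counting are not given in the sources used here. Barcodes end in 1 or 2, and these numbers were matched to the sample numbers in the labels, 1 for the control and 2 for the knockout; no other evidence links them.

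Of 8038 control and 7250 knockout barcodes, with medians of 21759 and 15287 UMIs, 6317 and 5494 had at least 5000 UMIs. The limit on mitochondrial RNA left 6306 and 5469, the absence of Ptprc 3864 and 2498, the keratin minimum 3646 and 2293, the Wfdc18 limit 3641 and 2256, and the proliferation limit 3120 and 1757. Doublets were called with Scrublet (scanpy 1.11.5) and marked 0 of the Lcn2/Slpi-high cells and 8 control and 4 knockout cells of the rest, which were kept. Counts were summed per library and class, scaled to the total, and compared as log2 ratios with exact conditional binomial 95% intervals (scipy 1.17.1 with numpy 2.4.6 and pandas 2.3.3 in Python 3.11.15; figures with matplotlib 3.10.9) for genes with a mean of at least 5 CPM over the 2 sums. Counts were simulated for 9473 genes of the control comparison with counting error only, without the clustering of UMIs in single cells. The interval held the true value for 95.1% of unchanged genes, 90% of genes changed 1.5-fold and 92% of genes changed 2-fold. It left out 0 for 99% of genes changed 1.5-fold. The simulation thus checks the calculation and cannot show how well the interval covers spread between cells. A ratio against a sum of 0 used a floor of 3 counts.

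Genes named beyond Lcn2, Slpi, H19, Fermt2 and Wfdc18 were the 15 higher and 15 lower at least 1.5-fold in both libraries with the interval bound farthest from 0, and the 10 higher and 10 lower between libraries at least 2-fold. No cell could hold over 25% of the UMIs of the Lcn2/Slpi-high cells. Ribosomal, mitochondrial, immune receptor, haemoglobin and Y-linked genes, Xist, Tsix, Lcn2 and Slpi were left out of that ranking. Genes of fixed lists are named besides. The cells and the gene lists were chosen with earlier results of these data known. Neutrophils were gated on Ptprc and at least 20 CP10K of S100a8 and S100a9, and T cells on at least 3 UMIs of Cd3d, Cd3e and Cd3g, both without keratin or Epcam UMIs. Alternatives were other numbers of cells, each gene alone, equal numbers per library, other limits on expression, another scaling and thinning to 5000 UMIs. Some list genes are not reported here.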

Additional observations from a re-analysis of the deposited data

Results flagged for a closer look

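Among genes averaging at least 5 CPM in the comparison of each library, the ratio of Lcn2/Slpi-high cells to the other tumour cells was past 1.5-fold in opposite directions in the 2 libraries for 8 genes. The difference between the libraries was not tested, since each group has 1 library. The values given are log2 ratios, followed by the knockout ratio minus the control ratio.

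Of these, 6 were higher in the control and lower in the knockout library. Mt1 had 0.91 and -0.86 (difference -1.77), and Mt2 1.04 and -1.49 (-2.54). Cxcl2 had 0.71 and -0.97 (-1.68), and Nos2, the inducible nitric oxide synthase, 1.5 and -1.42 (-2.92), with 33.3% of its UMIs in the knockout Lcn2/Slpi-high cells held by 1 cell. Angptl4, a secreted inhibitor of lipoprotein lipase, had 0.60 and -1.67 (-2.28), with 45.8% held by 1 knockout cell. Igfbp5, a binding protein of insulin-like growth factors, had 1.42 and -1.61 (-3.03), with 32.2% held by 1 control cell and 62.2% by 1 knockout cell.

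In the other direction, Ctla2a, a cysteine protease inhibitor, stood at 57.0 against 87.0 CPM in the control and 48.9 against 28.2 CPM in the knockout library, ratios of -0.61 and 0.79 (difference 1.40). Rflnb, a partner of filamin, stood at 33.3 against 53.5 CPM and 42.1 against 22.3 CPM, ratios of -0.68 and 0.92 (1.60).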

How the results depend on the processing

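The share of filter-passing cells in the group followed its definition. It was 5.80% of the control and 6.77% of the knockout cells for the top 300 cells, 22.4% and 17.2% for the top 1000, 9.62% and 17.1% for 300 cells of each library, 15.5% and 6.55% by Lcn2 alone, and 11% and 14.7% by Slpi alone. In the control library the counts of genes higher and lower were 180 and 404 for the top 300 cells, 162 and 421 by Lcn2 alone, and 26 and 84 by Slpi alone, and by Lcn2 alone 431 genes were higher in the knockout library. With cells thinned to 5000 UMIs, which leaves more counting error, the counts were 219 and 706 in the control, 507 and 1171 in the knockout library, and 1504 and 1101 between the libraries. With a mean of at least 1 CPM they were 252 and 703, 429 and 1447, and 1529 and 1118, and with at least 20 CPM 40 and 73, 95 and 277, and 394 and 303. Ratios of the control library that changed sign were Slpi at -0.0057 and Col3a1 at 0.80 by Lcn2 alone, and Tlr2 at -0.10 and Pclaf at 0.045 by Slpi alone; the cause was not tested. Of the values of named genes under all alternatives, 1080 stayed inside the 95% counting interval of the main value, 354 fell outside it and these 4 reversed. That interval is narrow for abundant genes and wide for rare ones. The limits of 1 and 20 CPM choose genes and leave a ratio unchanged. The 90 gene values under each of these limits therefore stayed by construction. Of the list medians, 947 stayed within 0.1 on the log2 scale and 205 moved further. The 947 include 72 under scaling by the median ratio, which shifts all medians of a comparison by the same amount, under 0.1. Leaving out cells with at least 3 UMIs of 7 gland genes, chosen after seeing the data, gave 82 and 241 genes in the control, 197 and 692 in the knockout library and 806 and 623 between them. No paired analysis was possible because each group has 1 library. Depth limits the genes near 5 CPM, above all in the 200 knockout cells.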
